A study of Mus musculus with 9 samples.

Results

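Phase II conjugation enzymes attach a polar group to drugs, hormones, bilirubin and other lipophilic compounds, so that these can leave the liver in bile or urine. The 3 gene families below were followed through liver cancer and its treatment: UDP-glucuronosyltransferases (UGT), sulfotransferases (SULT) and glutathione S-transferases (GST, with the microsomal MGST). Members were the genes whose symbol carries a Ugt1 to Ugt3, Sult, Gst (classes a, k, m, o, p, t, z) or Mgst stem, with pseudogenes left out. The rule found 67 of the 55401 genes in the table, comprising 21 UGT, 21 SULT and 25 GST and MGST genes. Of these, 57 passed the filter on low counts (18 UGT, 16 SULT and 23 GST and MGST genes), among the 15717 genes tested. Passing was partly decided by the group in which a gene is high, so counts below are out of genes tested.

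UGTs transfer glucuronic acid from UDP-glucuronic acid, which the liver makes from UDP-glucose. SULTs transfer sulfate from PAPS, a donor built from inorganic sulfate and ATP. GSTs join the thiol of glutathione to reactive electrophiles, and several GST genes are known for rising in chemically induced liver tumors of rodents. Hepatocytes are the main site of all these reactions in the liver.

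RNA was sequenced from whole livers of female mice in 3 groups of 3 livers. HCC was produced in mice aged 6 weeks by hydrodynamic tail vein injection of the sleeping beauty plasmids pT3-EF1α-HA-myr-AKT and pT/Caggs-Nras-v12 with the transposase plasmid pCMV-SB11 (RAS/AKT), so the oncogenes were driven by the EF1α and Caggs promoters in the hepatocytes that took up plasmid. At 1 week the mice received a single intravenous dose, lower by the labels than by the study's methods, of AAV8-miR-22 (miR-22-treated HCC, replicates 2 to 4) or of the AAV8 blank control (untreated HCC, replicates 2 to 4). Livers were taken 5 weeks after the oncogenes, which was 4 weeks after the virus. Healthy livers (replicates 1 to 3) came from WT mice with no treatment, so they had neither plasmids nor virus, and their labels give no time. The strain is C57BL/6 by one label and FVB/N by the protocol, and the shared protocol text also lists a β-catenin plasmid, pT3-EF1α-N90-β-catenin, which the series design does not give for these mice.

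The healthy libraries held 18258660 to 20964551 counts each, those of HCC 18293676 to 23908392, and those after miR-22 16664659 to 20459853. Levels below are TMM-normalized CPM (counts divided by the effective library size and scaled as CPM), a scale that compares a gene between livers but not genes with each other, and n is 3 livers per group throughout. A gene was called higher or lower at a Benjamini-Hochberg adjusted p under 0.05 over all tested genes and a fold change over 1.5, in edgeR's two-sided quasi-likelihood test, the source of all adjusted p-values here. Hepatocyte markers set the groups apart, although they show neither the oncogenes nor miR-22. The summed level of 10 markers was 140012 to 143721 CPM in healthy livers, 55773 to 70266 in HCC and, after miR-22, 84530 to 105606. Most of that sum was Alb, which was not called with miR-22 (adjusted p = 0.0635). Of these markers 9 were called lower in HCC and 6 higher with miR-22, and none was at 0. In whole liver, fewer hepatocytes and less RNA per hepatocyte cannot be told apart. The sum of 8 cholangiocyte markers was 43.6 to 52.9, 3382 to 6318 and 1595 to 2747 CPM in the same order. Of these markers 7 were called higher in HCC and 5 lower with miR-22. Most of the sum was Spp1, none of the 8 was at 0, and Krt19, a defining bile duct keratin, was the 1 not called in HCC, at 1.04 to 6.61 CPM over all livers. Neutrophil markers summed to 1.76 to 4.53, 17.5 to 23.1 and 16.8 to 24.5 CPM, with 4 of 4 tested higher in HCC and Ly6g, a defining one, at 0 in 8 of 9 livers. Stellate cell and fibroblast markers summed to 353 to 423, 844 to 974 and 697 to 794 CPM, with 4 of 8 higher and 2 lower in HCC, and 2 higher and 1 lower with miR-22. Endothelial markers summed to 341 to 424, 218 to 275 and 285 to 367 CPM (3 of 7 lower in HCC, 1 higher with miR-22), and macrophage markers to 346 to 420, 452 to 489 and 506 to 528 CPM (3 of 8 higher and 1 lower in HCC). The part of these cell types in the results below was not tested.

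Most conjugation enzyme genes were lower in HCC than in healthy livers, and the genes that were higher belonged to GST and SULT. In HCC, 45 of the 57 tested members were called (11 higher and 34 lower), against 40.8% of all tested genes (22.7% higher and 18.1% lower). The median log2 fold change was −0.89 over the tested members and 0.01 over all tested genes. UGT had 13 of 18 genes lower and 0 higher, SULT had 12 of 16 lower and 3 higher, and GST and MGST had 9 of 23 lower and 8 higher. Beside the 0 UGT genes called higher stands 1 (Ugt2b35) with an unadjusted p under 0.05 and a fold change under the limit, and DESeq2 also called 0.

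With miR-22, every called member was higher than in untreated HCC. Called higher were 24 of 57 tested members and called lower 0, against 13.8% of all tested genes (8.32% higher and 5.47% lower). By family these were 12 UGT, 5 SULT and 7 GST and MGST genes, and the median log2 fold change was 0.59 over the members and 0.00 over all tested genes. At an unadjusted p under 0.05, with no fold limit, 4 members were lower (Gstm2, Gstm3, Gstp1 and Sult2a3), and DESeq2 called 1 lower, Gstm3. Leaving out HCC replicate 3 left 16 higher and 2 lower, beside 1015 higher and 481 lower of 16056 genes. Leaving out miR-22-treated replicate 4 gave 28 higher and 2 lower, beside 1511 and 1149 of 16149 genes. With all livers, 1308 and 859 of 15717 genes were called higher and lower.

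Compared with healthy livers, miR-22-treated HCC had 39 of 57 tested members called (13 higher and 26 lower), against 24.0% of all tested genes (16.9% higher and 7.05% lower). SULT had 12 lower and 3 higher, GST and MGST had 7 lower and 8 higher, and UGT had 7 lower and 2 higher. Of these, Sult2a3 (lower) and both higher UGT genes, Ugt1a7c and Ugt2b38, were not called in untreated HCC. The 3 comparisons share livers, so their values are set side by side without a test of their overlap.

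**Figure D1:**
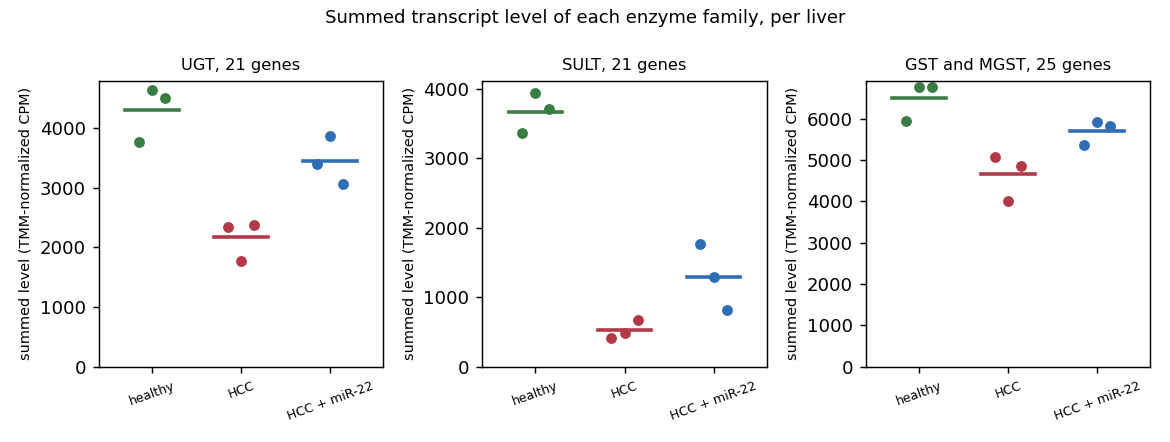
Summed level in TMM-normalized CPM (y axis, from 0) of all UGT, SULT and GST with MGST genes in each liver (points) of the 3 groups (x axis), with bars at the group means. The SULT sum was 3360 to 3934 CPM in healthy livers, 409 to 667 in HCC and, after miR-22, 816 to 1766, with no overlap between groups.

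Summed over the genes of a family, the TMM-normalized ranges did not overlap between healthy livers and HCC. UGT transcripts summed to 3765 to 4646 CPM in healthy livers, 1772 to 2383 in HCC and, after miR-22, 3063 to 3865. The miR-22-treated range reached into the healthy range. GST and MGST transcripts summed to 5936 to 6768, 4016 to 5066 and 5365 to 5911 CPM. The SULT sum fell furthest, with the treated livers between the other groups. The scaling matters here, because TMM took a healthy library as 0.87 times its counts and an HCC library as 1.12 to 1.22 times. Per total counts, without TMM, the GST and MGST ranges of healthy livers and HCC overlapped, so that separation rests on the normalization. All members together made up 1.14% to 1.33% of total counts in healthy livers, 0.77% to 0.90% in HCC and 1.00% to 1.05% after miR-22.

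**Figure D2:**
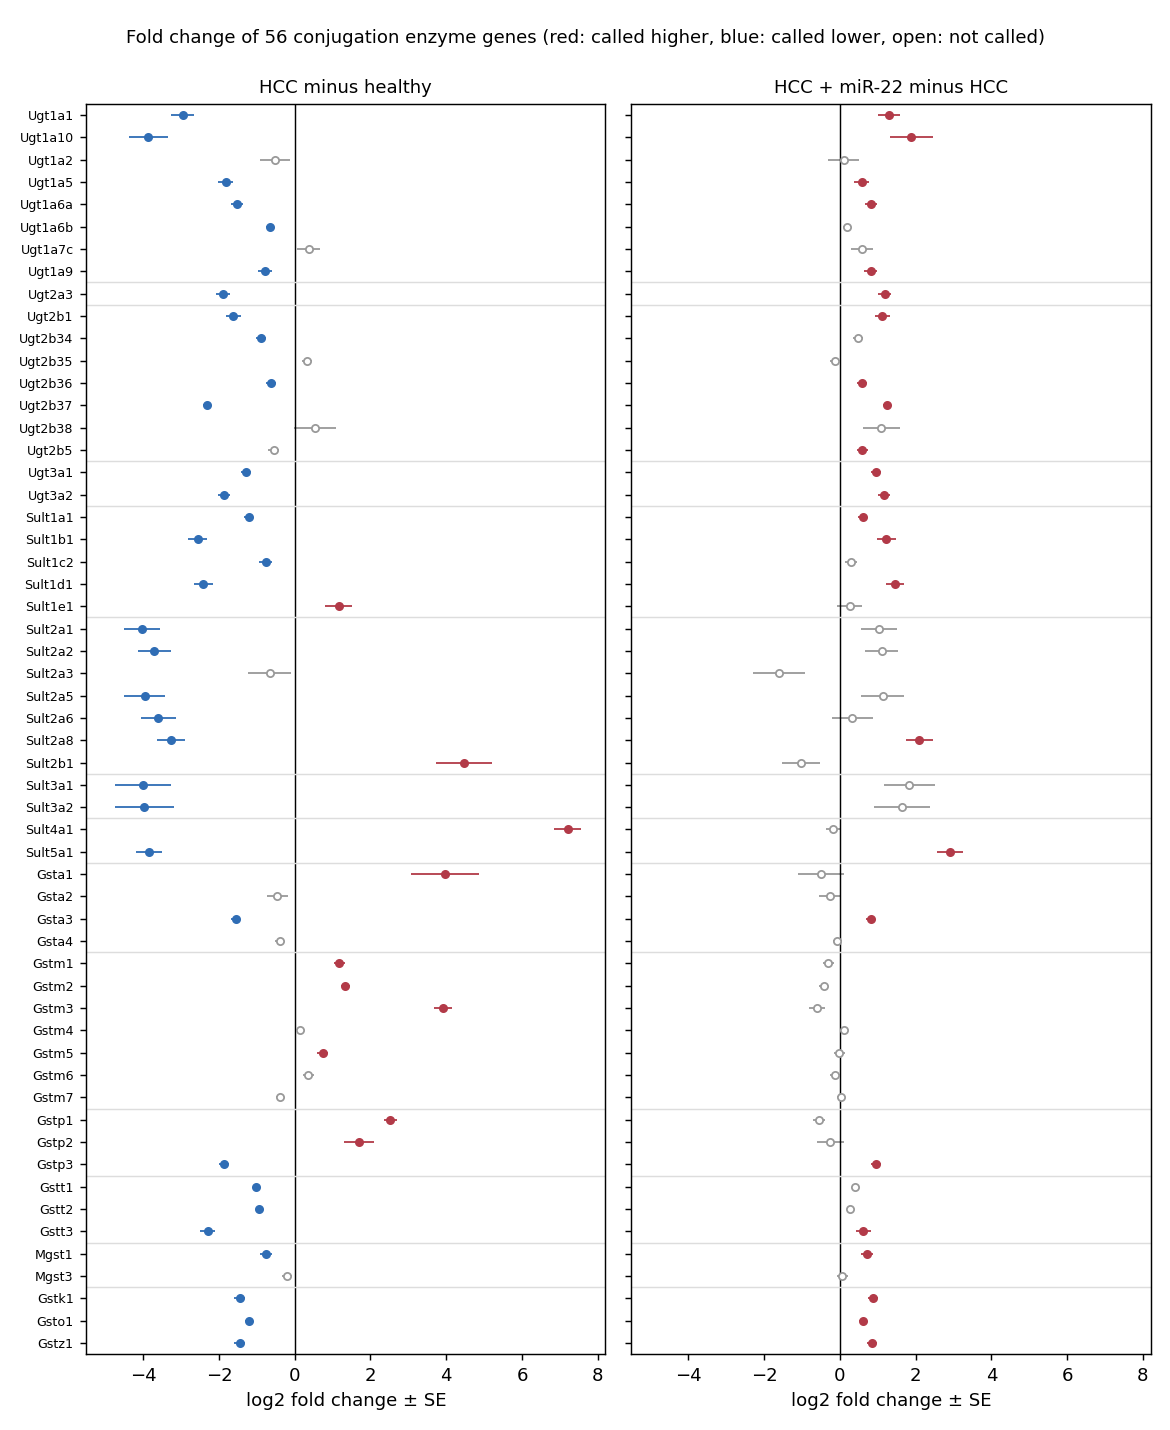
Log2 fold change with its standard error (x axis) of 56 tested members (y axis, grouped by subfamily) in HCC against healthy livers (left) and in miR-22-treated against untreated HCC (right); red points were called higher, blue lower and open points not called. Mgst2 is left out because it had no counts in healthy livers. SULT genes lie farthest to the left in HCC, and all filled points on the right are above 0.

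Sulfotransferases had the largest falls. Sult3a1, an amine sulfotransferase expressed mainly in female mouse liver, was at 1485, 1567 and 1569 CPM in healthy livers, 14.2, 121 and 151 in HCC, and 656, 246 and 118 in miR-22-treated HCC. All healthy livers lay above all HCC livers, whereas treated and untreated HCC overlapped, because treated replicate 4 lay below 2 HCC livers. In HCC the log2 fold change was −4.01 ± 0.74 (SE, adjusted p = 0.0005). With miR-22 it was 1.83 ± 0.68 and was not called (adjusted p = 0.0684). Without treated replicate 4 it was 2.24 and was called (adjusted p = 0.0228), and without HCC replicate 4 it was 2.33 (adjusted p = 0.0498).

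Its neighbour Sult3a2 on chromosome 10 went the same way, from 299, 302 and 315 CPM in healthy livers to 2.16, 30.0 and 26.0 in HCC and 130, 36.9 and 16.0 with miR-22. HCC replicate 2 was the lowest liver for both genes and treated replicate 2 the highest treated one. The fold change of Sult3a2 was −3.97 ± 0.78 in HCC (adjusted p = 0.000848) and 1.64 ± 0.73 with miR-22 (adjusted p = 0.126). Leaving out treated replicate 4 gave 2.10, which was called (adjusted p = 0.0344). Against healthy livers both genes were called lower with miR-22 (−2.18 for Sult3a1 and −2.33 for Sult3a2), with adjusted p-values of 0.0249 and 0.0246. Leaving out healthy replicate 2 or 3 or treated replicate 3 or 4 moved these above the threshold, with log2 values of −1.77 to −2.18 for Sult3a1 and −1.87 to −2.35 for Sult3a2. With DESeq2 the Sult3a2 call was also lost (−2.35, adjusted p = 0.0605).

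Sult2a genes encode hydroxysteroid sulfotransferases that sulfate bile acids and dehydroepiandrosterone. Sult2a1 was at 112, 161 and 110 CPM in healthy livers, 1.97, 8.37 and 12.7 in HCC, and 23.4, 16.7 and 7.94 with miR-22. No healthy liver came near the other groups, and treated replicate 4 lay within the HCC range. The fall in HCC was −4.03 ± 0.48 on the log2 scale (adjusted p = 1.53e-05), and the difference with miR-22 was 1.02 ± 0.47 (adjusted p = 0.141). Leaving out treated replicate 4 gave 1.36 and leaving out HCC replicate 4 gave 1.61, both called (adjusted p = 0.0422 and 0.0379). With no filter on low counts, Sult2a1, Sult2a2, Sult2a5, Sult3a1 and Sult3a2 were all called higher with miR-22, at log2 values of 1.02, 1.10, 1.13, 1.82 and 1.63. These values hardly differ from the main fit, while adjusted p-values fell to 9.01e-14 for Sult2a1 and 1.06e-40 for Sult3a1. Treated livers overlapped HCC for each of these genes. The calls therefore rest on that fit's estimate of the spread and not on a larger difference.

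Sult2a8, the Sult2 gene with the most counts here and a bile acid sulfotransferase of mouse liver, was the Sult2 gene called with miR-22. It was at 590, 743 and 640 CPM in healthy livers, 44.4, 46.7 and 114 in HCC, and 344, 373 and 163 in miR-22-treated HCC. The 3 groups did not overlap. It fell by 3.26 ± 0.38 on the log2 scale in HCC (adjusted p = 1.09e-05) and rose by 2.10 ± 0.36 with miR-22 (adjusted p = 0.00164). It remained below healthy livers (−1.17, adjusted p = 0.0199), a call lost without treated replicate 4 (−0.88, adjusted p = 0.0602) or without healthy replicate 2 (−1.08, adjusted p = 0.0645).

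Another 3 genes of the Sult2a cluster on chromosome 7 were called lower in HCC: Sult2a2 (−3.71), Sult2a5 (−3.96) and Sult2a6 (−3.60). None of the 3 was called with miR-22 (1.11, 1.13 and 0.33), although Sult2a2 was called without HCC replicate 4 (1.64) or treated replicate 4 (1.48), and Sult2a5 without HCC replicate 4 (2.44). Sult2a3, at no more than 2.21 CPM in any liver, was not called in HCC (−0.66). It was called lower in miR-22-treated HCC than in healthy livers (−2.27, adjusted p = 0.019), a call lost without healthy replicate 2 (−1.45), its highest liver, or treated replicate 3 (−1.88). Sult2a4 and Sult2a7 did not pass the filter.

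These genes resemble each other closely, which limits how far their counts can be told apart. In the GENCODE M39 transcripts, 40.2% of the 31-base words of Sult2a1 also occur in Sult2a2, and 55.4% of those of Sult2a2 occur in Sult2a1. The canonical transcript of Sult2a8 shared 0.0% of its words with other genes. The sum over the 8 other Sult2 genes, which does not depend on how reads were divided among them, was 214, 328 and 238 CPM in healthy livers, 8.11, 20.6 and 31.5 in HCC, and 56, 39 and 19.4 with miR-22. Healthy livers lay above all others, and treated replicate 4 lay below 2 HCC livers. With Sult2a8, which carried most of the Sult2 counts, the sums were 805, 1071 and 879, 52.5, 67.3 and 146, and 400, 412 and 182 CPM, and the groups did not overlap.

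Sult5a1 had the largest rise of any member with miR-22. Its levels were 58.0, 49.8 and 61.5 CPM in healthy livers, 2.53, 2.91 and 6.16 in HCC, and 34.0, 39.3 and 16.4 in miR-22-treated HCC. Every treated liver lay above every HCC liver and below every healthy liver. It fell by 3.84 ± 0.34 on the log2 scale in HCC (adjusted p = 1.45e-06) and rose by 2.92 ± 0.34 with miR-22 (adjusted p = 0.000216). The remaining difference from healthy livers (−0.92, adjusted p = 0.0275) was not called without healthy replicate 1 (−0.92), healthy replicate 3 (−0.87) or treated replicate 4 (−0.62), nor with DESeq2 (−0.95).

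Among SULT1 genes, Sult1a1, the phenol sulfotransferase, was at 490, 595 and 582 CPM in healthy livers, 263, 207 and 250 in HCC, and 389, 347 and 359 with miR-22. The groups did not overlap. It fell by 1.21 ± 0.12 (adjusted p = 3.6e-06) and was 0.60 ± 0.12 higher with miR-22 (adjusted p = 0.00398). That value lies just past the fold limit and was not called without HCC replicate 3 (0.50) or treated replicate 2 (0.55), nor with the size factors of DESeq2 (0.58). Its exons overlap those of Sgf29 on the opposite strand, and the libraries carried no strand.

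Sult1d1, a sulfotransferase for catecholamines and other small amines, was at 172, 277 and 237 CPM in healthy livers, 41.0, 32.7 and 55.5 in HCC and 113, 157 and 87.8 with miR-22. These levels did not overlap between any groups, with log2 fold changes of −2.41 ± 0.24 in HCC (adjusted p = 3.64e-06) and 1.47 ± 0.24 with miR-22 (adjusted p = 0.00121). Sult1b1, which acts on thyroid hormones, fell by 2.56 and rose by 1.23 with miR-22. Sult1c2 fell by 0.77 in HCC and was not called with miR-22 (0.29).

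**Figure D3:**
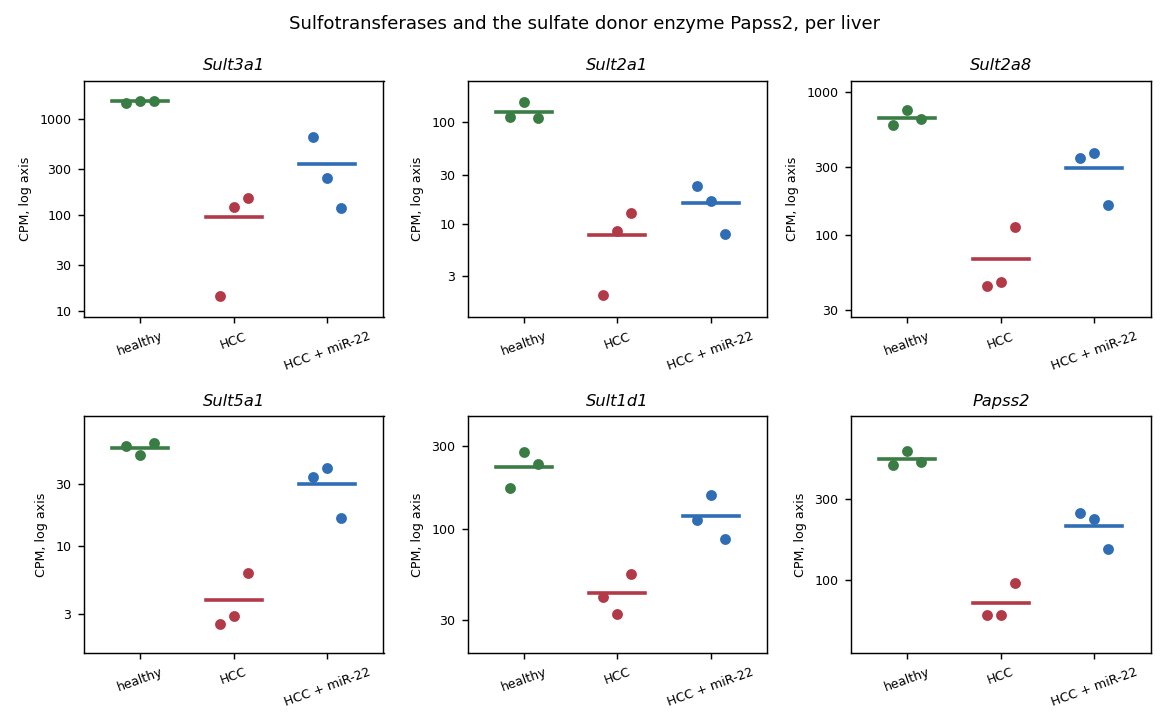
Level in TMM-normalized CPM (y axis, log scale, its own range in each panel) of 5 SULT genes and Papss2 in each liver (points) of the 3 groups (x axis), with bars at the group means. Sult2a8, Sult5a1, Sult1d1 and Papss2 in treated livers lie between the other groups, whereas Sult3a1 and Sult2a1 in treated livers overlap HCC.

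The other 3 called SULT genes went the other way. Sult4a1, a sulfotransferase known mainly from brain, had 2, 0 and 1 counts in the healthy livers. It reached 9.14, 9.67 and 10.6 CPM in HCC and 7.84, 9.31 and 8.99 with miR-22. From summed counts it was 164 times its healthy level in HCC (95% exact counting interval 55.9 to 798) and 145 times with miR-22 (49.4 to 706), intervals that cover counting error only. Treated and untreated HCC overlapped (−0.17, adjusted p = 0.551). Sult4a1 also overlaps genes on the opposite strand.

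Sult2b1, the cholesterol sulfotransferase of skin, had 4 counts in all healthy livers together. In HCC its levels were 1.97, 2.64 and 1.12 CPM, and with miR-22 they were 1.03, 0.89 and 0.86. From summed counts it was 23.2 times its healthy level in HCC (8.86 to 86.6), and all treated livers lay below all HCC livers, a difference that was not called (−1.03, adjusted p = 0.16). Sult1e1, the estrogen sulfotransferase, was at 0.88, 1.07 and 1.21 CPM in healthy livers, 3.75, 1.70 and 1.68 in HCC and 2.57, 3.25 and 2.71 with miR-22. HCC replicate 2 stood above the rest. The rise of 1.16 ± 0.36 (adjusted p = 0.0154) was not called without that liver (0.68, adjusted p = 0.0952) or without healthy replicate 1 (1.03, adjusted p = 0.0543).

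Over the 18 tested UGT genes the median log2 fold change was −1.09 in HCC and −0.45 in miR-22-treated HCC against healthy livers, and over the 16 SULT genes it was −2.91 and −1.25, a difference between families that was not tested. Ugt1a1, which conjugates bilirubin, was at 198, 246 and 205 CPM in healthy livers, 16.0, 25.3 and 41.9 in HCC and 87.5, 72.2 and 46.3 in miR-22-treated HCC. The groups did not overlap, though treated replicate 4 was close to HCC replicate 4. It fell by 2.95 ± 0.30 (adjusted p = 4.05e-06), rose by 1.30 ± 0.29 with miR-22 (adjusted p = 0.007) and stayed below healthy livers (−1.66, adjusted p = 0.000753).

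Ugt1a9, the UGT1 gene with the most counts over all livers and one that conjugates phenols, was at 159, 211 and 230 CPM in healthy livers, 122, 87.3 and 139 in HCC, and 194, 237 and 181 with miR-22. Treated livers fell within or above the healthy range. The log2 fold changes were −0.78 ± 0.18 in HCC (adjusted p = 0.00219), 0.81 ± 0.18 with miR-22 (adjusted p = 0.00619) and 0.03 ± 0.18 between treated and healthy livers (adjusted p = 0.911).

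Ugt1a genes lie in 1 locus (chr1:87983110-88147724, plus strand, GRCm39), where each has its own first exon and all share the later exons and the 3′ end. Of the 31-base words of Ugt1a1, 87.5% occur in other genes, and for Ugt1a6a the share is 98.5%, so the division of reads among them rests on the authors' Salmon estimates. The sum over the 9 genes was 446, 557 and 535 CPM in healthy livers, 182, 150 and 227 in HCC and 344, 370 and 280 with miR-22, with no overlap between groups. On the log2 scale the sum was −1.46 in HCC against healthy livers.

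Other Ugt1a genes spread widely. Ugt1a5 (−1.82), Ugt1a6a (−1.53) and Ugt1a6b (−0.66) were lower in HCC, Ugt1a5 (0.59) and Ugt1a6a (0.82) were higher with miR-22, and Ugt1a2 was called in no comparison. The Ugt1a5 call with miR-22 lay on both limits (adjusted p = 0.0486), its treated livers overlapped HCC, and it was not called without HCC replicate 2 or 3 or treated replicate 2 or 3 (0.42 to 0.63), nor in any of the 6 other fits tried, DESeq2 among them (0.56). Ugt1a10, at 2.14 to 4.45 CPM in healthy livers and 0.19 to 0.28 in HCC, fell by 3.87 ± 0.51 (adjusted p = 3.62e-05). With miR-22 it was at 0.69, 1.66 and 0.48 CPM, a rise of 1.89 ± 0.56 (adjusted p = 0.0292) that was not called when any HCC liver (1.71 to 1.99) or treated replicate 3 (1.23) was left out. Ugt1a7c was not called in HCC (0.37). In miR-22-treated HCC it was called higher than in healthy livers, at 2.97, 2.30 and 3.19 against 1.01, 1.95 and 1.43 CPM (0.95 ± 0.31, adjusted p = 0.0299). Leaving out healthy replicate 1 or 3 or treated replicate 2 or 4 ended that call (0.73 to 0.92).

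Ugt2b genes, which conjugate steroids and bile acids, lie together on chromosome 5 and did not move as a block. Ugt2b37 fell most, from 55.3, 53.3 and 57.5 CPM to 10.4, 11 and 12.2 in HCC, and stood at 26.7, 29.1 and 24.1 with miR-22. Its fold changes had the smallest standard errors of the Ugt2b genes. Each group was narrow and far from the next. The log2 fold changes were −2.30 ± 0.10 in HCC (adjusted p = 1.16e-08), 1.24 ± 0.10 with miR-22 (adjusted p = 2.14e-05) and −1.06 ± 0.10 against healthy livers (adjusted p = 7.2e-06).

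Ugt2b5, next to it, was at 600, 737 and 692 CPM in healthy livers, 503, 366 and 508 in HCC and 645, 788 and 654 with miR-22. HCC livers all lay below the others, but the fold change of −0.56 ± 0.15 was under the fold limit (adjusted p = 0.00579). It became a call without healthy replicate 1, HCC replicate 2 or HCC replicate 4, and with the replicate block. With miR-22 Ugt2b5 rose by 0.60 ± 0.15 (adjusted p = 0.0114). That rise, just past the fold limit, was not called without HCC replicate 3 (0.46) or treated replicate 3 (0.50), nor with DESeq2 or its size factors (0.57 in both). Ugt2b35 was at 154, 196 and 195 CPM in healthy livers, 265, 199 and 223 in HCC and 209, 235 and 191 with miR-22. All HCC livers lay above all healthy livers by a small margin (0.34 ± 0.13, adjusted p = 0.0463), which was under the fold limit, and treatment gave no call (−0.11).

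Ugt2b34, the Ugt2b gene with the most counts, fell by 0.89 ± 0.14 in HCC, from 726, 920 and 850 CPM to 513, 378 and 458, and reached 641, 669 and 568 with miR-22. That difference was under the fold limit (0.48 ± 0.14, adjusted p = 0.0246). Ugt2b1 (−1.62 and 1.12) and Ugt2b36 (−0.62 and 0.59) were lower in HCC and higher with miR-22, and neither was called against healthy livers (−0.50 ± 0.19 and −0.03 ± 0.13). Without HCC replicate 3, Ugt2b36 was called neither in HCC (−0.50) nor with miR-22 (0.47), and its call with miR-22 was also lost without treated replicate 3 (0.52) and with DESeq2 (0.56). Ugt2b38, at no more than 2.74 CPM, was called higher with miR-22 than in healthy livers (1.63, adjusted p = 0.0302). Leaving out healthy replicate 2 (1.29), healthy replicate 3 (1.61) or treated replicate 3 (1.19) ended that call. Ugt2b38 shares 44.1% of its 31-base words with Ugt2b5.

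Ugt2a3, a hepatic and intestinal UGT for bile acids, went from 305, 390 and 382 CPM in healthy livers to 97.7, 75.7 and 116 in HCC and 239, 252 and 167 with miR-22. The groups did not overlap (−1.89 ± 0.18, adjusted p = 2.62e-06, and 1.18 ± 0.18, adjusted p = 0.000903). Ugt3a proteins use other sugars than glucuronic acid. Ugt3a2 fell by 1.86 ± 0.16 in HCC, from 429, 489 and 485 CPM to 118, 109 and 159, and rose by 1.18 ± 0.16 with miR-22, to 299, 336 and 238 (adjusted p = 1.04e-06 and 0.000458). Without treated replicate 4, both Ugt2a3 (−0.55) and Ugt3a2 (−0.56) lost the call against healthy livers. The current annotation exchanges the names Ugt3a1 and Ugt3a2, and the deposited names are used here.

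**Figure D4:**
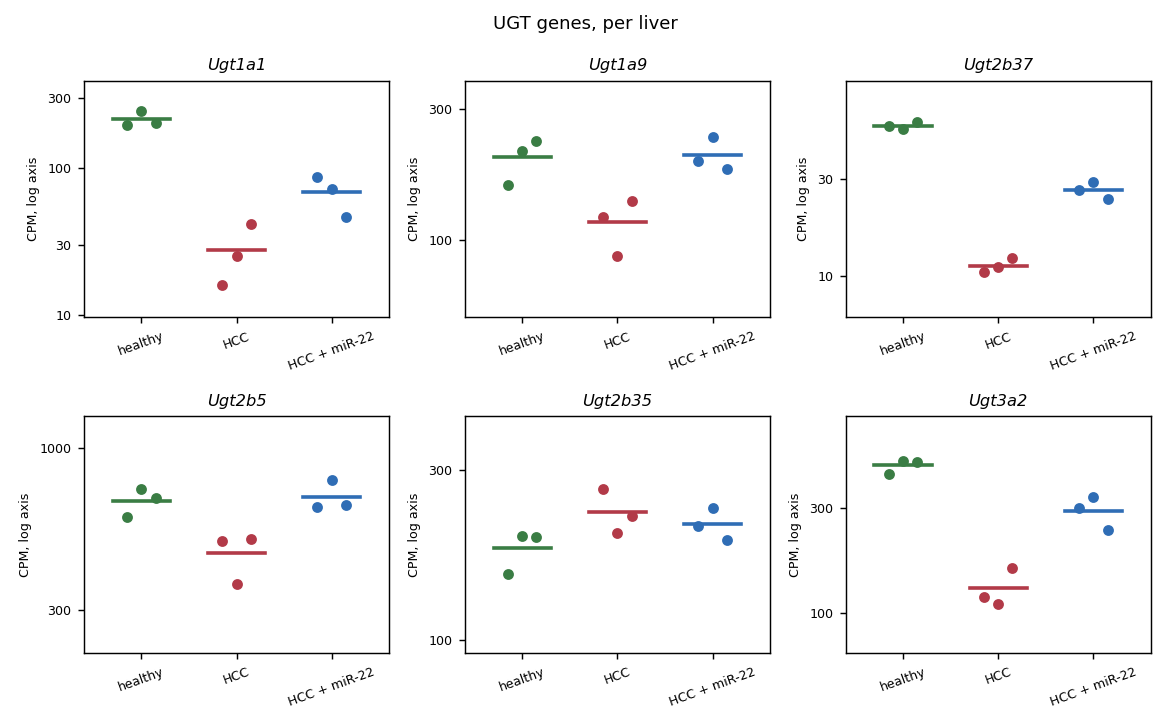
Level in TMM-normalized CPM (y axis, log scale, its own range in each panel) of 6 UGT genes in each liver (points) of the 3 groups (x axis), with bars at the group means. Ugt1a1, Ugt2b37 and Ugt3a2 in treated livers lie between the other groups, Ugt1a9 and Ugt2b5 reach the healthy range, and Ugt2b35 is slightly higher in HCC than in healthy livers.

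Start-site sequences are shown for members that fell in HCC and carry the same short motif. The motif GTTAAT was searched on both strands from 250 bases before to 50 bases after the start of the canonical transcript (GRCm39, GENCODE M39), together with GCGTG, the core of the xenobiotic response element, and TGACNNNGC, the core of the antioxidant response element. The 100 bases before the start are printed 5′ to 3′ on the strand of the gene, with GTTAAT or its reverse complement ATTAAC in capitals. All lower members with a match within these 100 bases are shown, except Sult2a2, whose 100 bases are the same as those of Sult2a1. The other 4 lower members with the motif held it farther from the start, at −123 in Ugt3a1, −146 in Gsta3, −201 in Sult3a2 and −207 in Sult1a1.
Sult2a1 (chr7:13571338-13571437, minus strand): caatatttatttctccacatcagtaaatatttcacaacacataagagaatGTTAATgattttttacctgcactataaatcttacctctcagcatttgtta
Sult2a5 (chr7:13357792-13357891, plus strand): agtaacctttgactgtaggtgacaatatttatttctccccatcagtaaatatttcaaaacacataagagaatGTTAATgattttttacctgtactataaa
Sult2a6 (chr7:13988815-13988914, minus strand): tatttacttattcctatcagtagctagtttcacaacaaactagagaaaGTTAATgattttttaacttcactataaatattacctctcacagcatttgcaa
Sult1c2 (chr17:54153419-54153518, minus strand): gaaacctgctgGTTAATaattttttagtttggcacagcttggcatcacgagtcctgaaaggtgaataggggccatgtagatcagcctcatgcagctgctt
Sult1d1 (chr5:87716934-87717033, minus strand): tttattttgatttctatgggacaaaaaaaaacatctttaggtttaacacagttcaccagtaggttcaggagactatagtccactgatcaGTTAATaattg
Ugt1a1 (chr1:88139579-88139678, plus strand): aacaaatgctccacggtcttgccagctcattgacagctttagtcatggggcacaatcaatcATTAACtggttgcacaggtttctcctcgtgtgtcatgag
Ugt1a9 (chr1:87998350-87998449, plus strand): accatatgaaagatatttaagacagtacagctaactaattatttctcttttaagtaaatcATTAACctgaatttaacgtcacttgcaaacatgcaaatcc
Ugt1a10 (chr1:87983033-87983132, plus strand): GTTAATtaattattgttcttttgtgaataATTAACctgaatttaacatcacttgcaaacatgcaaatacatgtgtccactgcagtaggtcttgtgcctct
Ugt1a6b (chr1:88030852-88030951, plus strand): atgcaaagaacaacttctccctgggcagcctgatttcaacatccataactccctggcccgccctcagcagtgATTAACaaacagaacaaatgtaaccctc
Ugt2a3 (chr5:87485056-87485155, minus strand): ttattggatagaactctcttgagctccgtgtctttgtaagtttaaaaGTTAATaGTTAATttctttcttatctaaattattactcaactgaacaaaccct

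GTTAAT occurred in the 300-base window of 15 of the 34 members called lower in HCC, 0 of the 11 called higher, 1 of the 12 not called and 3 of the 10 not tested. Over all 21770 protein-coding promoters, 6.9% held it. Sult2a genes are recent copies of each other, so their matches are not independent. GCGTG was in 6 of the 11 higher members (Gsta1, Gstm1, Gstm2, Gstm5, Sult4a1 and Sult2b1) and 3 of the 34 lower ones, against 37.0% of all promoters. TGACNNNGC was in Gstm5 and Gsta3 alone among the members, against 12.5% of all promoters. A match is a description of letters and not a bound site.

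GSTs were split, and the split ran through neighbouring genes. Gstp1, Gstp2 and Gstp3 lie side by side on the minus strand of chromosome 19 and encode pi-class enzymes. Gstp1, at chr19:4085405-4088068, was at 54.9, 55.6 and 65.3 CPM in healthy livers, 388, 317 and 310 in HCC and 204, 197 and 295 with miR-22. All treated livers lay below all HCC livers and far above the healthy ones. It rose by 2.53 ± 0.16 in HCC (adjusted p = 1.17e-07), and with miR-22 the difference of −0.54 ± 0.15 (adjusted p = 0.0231) was under the fold limit. Leaving out HCC replicate 3 (−0.59), HCC replicate 4 (−0.60) or treated replicate 4 (−0.75) made it a call.

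Gstp3, at chr19:4106035-4109569, moved the opposite way. It was at 822, 811 and 823 CPM in healthy livers, 204, 201 and 265 in HCC and 419, 483 and 391 with miR-22. The groups did not overlap, with a fall of 1.88 ± 0.13 (adjusted p = 2.17e-07), a rise of 0.95 ± 0.13 with miR-22 (adjusted p = 0.00051) and a remaining difference of −0.93 ± 0.13 from healthy livers (adjusted p = 0.000152). Gstp3 shares 0.8% of its 31-base words with other genes, so its reads are separable from those of its neighbours. Gstp2, by contrast, shares 68.7% of its words with Gstp1. It was at 1.19, 1.13 and 2.25 CPM in healthy livers, 4.83, 2.91 and 7.32 in HCC and 3.26, 3.44 and 5.90 with miR-22, and its rise of 1.70 ± 0.39 (adjusted p = 0.00247) is therefore uncertain.

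The 100 bases before the start of the canonical transcript of each of these 3 genes are shown because the neighbours moved apart. For Gstp2 and Gstp3 that start lies inside the annotated gene, which has longer transcripts. TGAGTCA, the element bound by AP-1 factors, is in capitals; it was added to the search after these stretches had been read and occurs in 4.7% of all promoters on either strand. It lies in the stretch of Gstp2 and in neither of the others.
Gstp1 (chr19:4088069-4088168, minus strand): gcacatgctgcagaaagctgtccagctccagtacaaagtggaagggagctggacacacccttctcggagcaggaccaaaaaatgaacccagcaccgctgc
Gstp2 (chr19:4092274-4092373, minus strand): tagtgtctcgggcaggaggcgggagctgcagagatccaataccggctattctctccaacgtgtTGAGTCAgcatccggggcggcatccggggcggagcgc
Gstp3 (chr19:4109296-4109395, minus strand): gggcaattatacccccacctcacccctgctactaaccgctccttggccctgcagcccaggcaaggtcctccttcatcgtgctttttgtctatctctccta

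Mu-class genes, which conjugate epoxides and other electrophiles, lie together on chromosome 3, and 4 of the 7 tested were higher in HCC, beside 22.7% of all tested genes. Gstm3 rose most, from 19.0, 29.1 and 28.1 CPM in healthy livers to 515, 290 and 344 in HCC, and stood at 224, 242 and 294 with miR-22. The highest treated liver overlapped the lowest HCC liver. The rise in HCC was 3.91 ± 0.23 (adjusted p = 6.39e-08), and the difference with miR-22 was −0.60 ± 0.20 (adjusted p = 0.0503), just outside the threshold. It became a call without HCC replicate 3 (−0.77) or treated replicate 4 (−0.72), with DESeq2 (−0.63) and with DESeq2 size factors (−0.63).

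Gstm1, the mu-class gene with the most counts, was at 507, 622 and 622 CPM in healthy livers, 1509, 1130 and 1314 in HCC and 970, 990 and 1249 with miR-22. Healthy livers were below all others, and treated and untreated HCC overlapped (1.17 ± 0.15 in HCC, adjusted p = 2.6e-05, and −0.30 ± 0.15 with miR-22, adjusted p = 0.165). Gstm2 rose by 1.34 in HCC, with all treated livers between the other groups (−0.42 with miR-22, adjusted p = 0.023, under the fold limit). Gstm5 rose by 0.74. Not called in HCC were Gstm6 (0.36) and Gstm7 (−0.40), which lie among them, and Gstm4 (0.14), at the end of the cluster. No Gstm gene was called with miR-22. The 7 genes summed to 693, 843 and 841 CPM in healthy livers, 2305, 1658 and 1906 in HCC and 1419, 1457 and 1778 with miR-22.

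**Figure D5:**
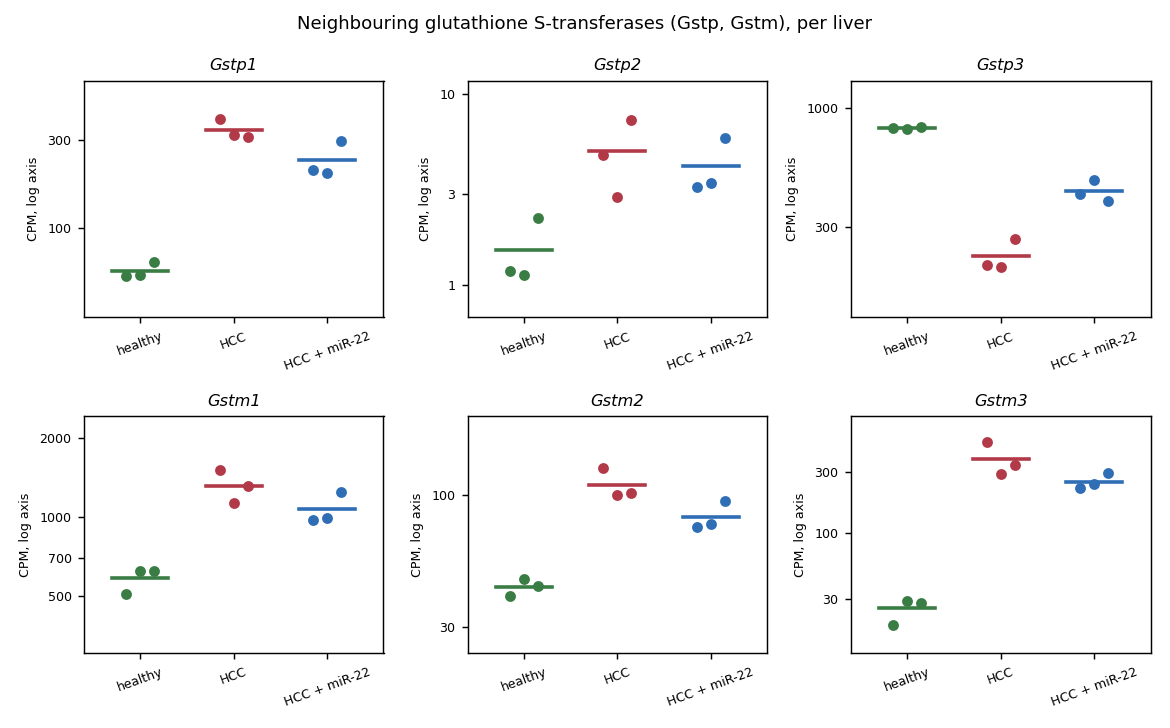
Level in TMM-normalized CPM (y axis, log scale, its own range in each panel) of 3 pi-class and 3 mu-class GST genes in each liver (points) of the 3 groups (x axis), with bars at the group means. Gstp3 is highest in healthy livers, and the other 5 genes are lowest there.

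Alpha-class genes, whose products also reduce lipid peroxides, were split as well. Gsta3 was at 1433, 1733 and 1752 CPM in healthy livers, 542, 521 and 606 in HCC and 906, 1012 and 1022 with miR-22, without overlap. It fell by 1.56 ± 0.13 (adjusted p = 6.25e-07), rose by 0.82 ± 0.12 with miR-22 (adjusted p = 0.000885) and remained below healthy livers (−0.74, adjusted p = 0.000574). Gsta4 (−0.40) and Gsta2 (−0.46) were not called, though Gsta2 was called in HCC without healthy replicate 1 and with the replicate block.

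Gsta1 had 4 counts in all healthy livers together and was at 2.16, 0.81 and 1.08 CPM in HCC and 0.69, 0.26 and 1.81 with miR-22. From summed counts it was 16.5 times its healthy level in HCC (6.23 to 61.8) and 12.5 times with miR-22 (4.59 to 47.3). The second of these was not called without treated replicate 4 (adjusted p = 0.0655). Of its 31-base words, 91.1% occur in other genes, mostly in a gene that the table lists as Gm3776 and the current annotation as Gsta13. Gm3776 and Gm10639 (now Gsta5), which the rule leaves out by symbol, were called higher in HCC as well, at 0.67 to 2.11 and 0.63 to 0.89 CPM, so reads of this group cannot be placed on 1 gene.

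Theta-class, kappa, omega and zeta genes fell without exception among those tested. Gstt1 (−1.02), Gstt2 (−0.93) and Gstt3 (−2.30) were called lower in HCC, and only Gstt3 was called higher with miR-22 (0.63, adjusted p = 0.0431), although its treated livers, at 50.6, 42.7 and 25 CPM, overlapped HCC at 25.8, 24.3 and 26.3. That call was lost when any HCC liver or treated replicate 2 or 3 was left out (0.40 to 0.65), with the replicate block (0.58) and in the fit of only the 2 groups (0.62). Gstz1, the maleylacetoacetate isomerase of tyrosine breakdown, was at 826, 914 and 843 CPM in healthy livers, 316, 261 and 366 in HCC and 597, 621 and 487 with miR-22. No groups overlapped (−1.45 ± 0.14, adjusted p = 2.72e-06, and 0.85 ± 0.14, adjusted p = 0.00129). Its call against healthy livers (−0.60) was lost without healthy replicate 2 (−0.57) or treated replicate 4 (−0.50). Its exons overlap those of Pomt2 on the opposite strand, and 29.3% of its 31-base words occur there. Exons of several other members, Gsto1, Gstm5 and Sult2b1 among them, overlap opposite-strand genes too. Of the words of Gstt3, 26.6% occur in Gm20441. Gstk1, a mitochondrial and peroxisomal GST, was −1.45 in HCC and 0.88 with miR-22, and Gsto1, a thioltransferase, was −1.20 and 0.61. The Gsto1 call with miR-22 was lost without HCC replicate 2 (0.58), HCC replicate 3 (0.52) or treated replicate 3 (0.57) and with DESeq2 (0.58).

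Mgst1, a membrane GST of the endoplasmic reticulum and mitochondria, was at 1256, 1438 and 1467 CPM in healthy livers, 881, 651 and 939 in HCC and 1245, 1534 and 1273 with miR-22. Treated livers spanned the healthy range. The fold changes were −0.75 ± 0.15 in HCC (adjusted p = 0.00102), 0.71 ± 0.15 with miR-22 (adjusted p = 0.00562) and −0.04 ± 0.15 between treated and healthy livers (adjusted p = 0.867). Without HCC replicate 3 the difference with miR-22 was 0.57, under the fold limit. Mgst2, which can make leukotriene C4, had 0 counts in every healthy liver and 1.64, 1.66 and 0.97 CPM in HCC. Its level was at least 7.87-fold higher in HCC and at least 6.9-fold higher with miR-22, taking 3 counts in each healthy liver as the floor. Mgst3 was not called in any comparison.

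Per kilobase of canonical transcript, Gstp3, Mgst1 and Gsta3 led in healthy livers, at 1195 ± 9.93, 1161 ± 95.8 and 1120 ± 122 CPM per kilobase (SD), and these do not differ beyond their spread. Sult3a1 followed at 687 ± 21.5. In HCC the order was Gstm1 (955 ± 137), Mgst1 (690 ± 128), Gsta3 (380 ± 30.2), Gstp1 (374 ± 47.7) and Gstp3 (326 ± 52.8), of which the last 3 do not differ beyond their spread. With miR-22 Mgst1 (1131 ± 133) was above Gstm1 (775 ± 113), Gsta3 (669 ± 44) and Gstp3 (629 ± 68.5).

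The mature miR-22-3p that the virus would add is shown with its seed, bases 2 to 8, in capitals (RefSeq, GRCm38.p6, chr11:75463772-75463793, plus strand). A 7-base match to this seed, GGCAGCT, occurs in the 3′ UTR of 14.0% of 20854 canonical transcripts. Among 65 members with a 3′ UTR it occurs in 3, printed below with the match in capitals and the bases around it.
mmu-miR-22-3p: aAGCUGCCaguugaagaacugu
Gstm4: gtttctcaggaGGCAGCTgcagaaggctc
Gstm7: tggctattttgGGCAGCTgtgtgctctcc
Sult5a1: ggtatgaggcaGGCAGCTagagtactgtg

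None of the 3 was lower with miR-22. Gstm4 was at 45.0, 34.1 and 40.5 CPM in HCC and 43.8, 43.8 and 41.8 with miR-22 (0.11, adjusted p = 0.507), and Gstm7 at 45.0, 43.8 and 48.4 against 52.8, 48.5 and 38.9 (0.03, adjusted p = 0.869). Sult5a1 is the member that rose most, as given above. Gstm3, Gstm2, Gstp1 and Sult2a3, whose values with miR-22 were lower at an unadjusted p under 0.05, are not among these 3.

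Genes that supply the donors were read from lists of known pathway members. Of 8 sulfate genes tested, 3 were lower and 2 higher in HCC, and 3 were higher and 1 lower with miR-22, beside 40.8% and 13.8% called among all tested genes. Papss2, the main PAPS synthase of liver, was at 478, 581 and 500 CPM in healthy livers, 61.6, 61.8 and 95.4 in HCC and 248, 228 and 152 with miR-22. The groups did not overlap (−2.83 ± 0.21, adjusted p = 3.16e-07, and 1.52 ± 0.20, adjusted p = 0.000435). The sulfate carrier Slc26a1 went the same way (−1.70 and 0.86), as did sulfite oxidase, Suox (−1.51 and 0.78). Papss1, the other PAPS synthase, rose by 1.03 in HCC, and the carrier Slc26a2 rose by 1.62 in HCC and fell by 0.94 with miR-22.

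Of 6 genes of glucuronic acid supply, 2 were called in HCC and 1 with miR-22, near the 40.8% and 13.8% of all tested genes. Slc35d2, a nucleotide sugar carrier, was lower in HCC (−1.09) and higher with miR-22 (0.80), and Gusb, the lysosomal β-glucuronidase that removes glucuronic acid, was higher in HCC (0.79). Ugdh, which makes UDP-glucuronic acid, was at 68.0, 91.7 and 100 CPM in healthy livers and 154, 102 and 122 in HCC. HCC livers lay above the healthy ones, under the fold limit (0.54, adjusted p = 0.0117), and Ugp2 was not called (0.05).

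Of 16 glutathione genes, 5 were higher and 3 lower in HCC, and 3 were higher with miR-22, shares not far from the 40.8% and 13.8% called among all tested genes. Slc7a11, the cystine importer, had 0 counts in healthy livers and 3.98, 4.88 and 3.44 CPM in HCC (at least 22.7-fold higher against 3 counts in each healthy liver), with 4.12, 2.49 and 4.28 after miR-22. G6pdx, which feeds NADPH to glutathione reductase, rose by 1.47. Cth, which makes cysteine from cystathionine, went from 135, 193 and 197 CPM to 34.5, 29.8 and 38.2 in HCC and 99.9, 103 and 52.3 with miR-22 (−2.36 and 1.31). Chac1, a glutathione-degrading enzyme, was higher in HCC than in healthy livers (1.71) and higher still with miR-22 (1.48), at 6.35, 8.35 and 5.33 CPM. Both subunits of the rate-limiting synthesis enzyme stayed under the fold limit in HCC, Gclc at 0.48 and Gclm at −0.36.

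Of 16 genes of other conjugation reactions, 12 were lower and 2 higher in HCC, beside 18.1% and 22.7% of all tested genes, and 11 were higher with miR-22, beside 8.32%. Gnmt, the glycine methyltransferase, fell by 3.14 and rose by 1.59. Inmt, an amine methyltransferase, was at 503, 644 and 525 CPM in healthy livers, 39.3, 25.7 and 85.8 in HCC and 269, 357 and 236 with miR-22 (−3.47 and 2.51). Slc27a5 (−2.18 and 1.25) and Acsm1 (−1.99 and 1.23), which activate bile acids and other acids for conjugation to amino acids, went the same way.

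Of 16 genes tested from a list of regulators, 11 were lower and 1 higher in HCC, and 7 were higher with miR-22. Among all tested genes these shares were 18.1%, 22.7% and 8.32%. The list and these counts include Por, which is not a regulator. The xenobiotic receptor gene Nr1i3 (CAR), a known inducer of Ugt1a1 and several SULT and GST genes, was at 158, 139 and 137 CPM in healthy livers, 11.9, 16.0 and 29.5 in HCC and 54.4, 55.6 and 63.3 with miR-22. No groups overlapped (−2.91 ± 0.25, adjusted p = 9.05e-07, and 1.59 ± 0.24, adjusted p = 0.000871). Esr1 (−2.79 and 1.95), Ppara (−1.92 and 1.44), Nr1i2 (PXR, −1.11 and 0.82) and Por, the electron donor of cytochromes P450 (−2.52 and 1.85), were lower in HCC and higher with miR-22. Nfe2l2 (NRF2), known to induce Gstm and Gsta genes, was the 1 that rose, from 83.5, 85.7 and 81.5 CPM to 223, 175 and 170 in HCC, and stood at 118, 113 and 147 with miR-22. All treated livers were below all HCC livers, under the fold limit (−0.58, adjusted p = 0.00568).

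Treated replicate 4 was the lowest treated liver for Sult3a1, Sult2a1, Sult2a8, Sult5a1, Sult1b1, Sult1d1, Ugt1a1, Ugt2a3 and Papss2. The same liver had the lowest hepatocyte marker sum of the treated livers (84530 against 95875 and 105606 CPM), the highest cholangiocyte marker sum (2747 against 1957 and 1595 CPM) and the highest Gstm1, Gstm3, Gstp1 and Nfe2l2. The part of this in the results was not tested. Without it, 28 of 60 tested members were called higher with miR-22, beside 1511 of 16149 genes (1308 of 15717 with all livers). Sult2a1, Sult2a2, Sult3a1 and Sult3a2 were among the members gained.

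The remaining 10 members were not tested. Sult6b2, Sult1c1, Ugt2a1 and Ugt2a2 had 0 counts in all 9 livers, and Gstt4, Gsto2, Sult6b1, Sult2a4, Sult2a7 and Ugt1a8 had at most 2.02 CPM in any liver.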

How the data were processed

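RNA from 9 livers was made into NEBNext Ultra II libraries that do not keep strand. Per the study's methods, the authors checked reads with FastQC, quantified transcripts with Salmon and summed them to genes with tximport, and the deposited values are whole-number counts per gene, not normalized. A deposited table of the same counts scaled per library was not used. The methods name GRCm39 with a GENCODE release that belongs to GRCm38, and the counts carry no coordinates. Coordinates and sequences here were read from GRCm39 with GENCODE M39 by gene ID (67 of 67 members matched, 2 under another name).

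From the counts, edgeR 4.0.16 (R 4.3.3) was run with TMM normalization, filterByExpr and the quasi-likelihood test on all 9 libraries in 1 fit of 3 groups, and p-values were adjusted over 15717 genes. Calls needed an adjusted p under 0.05 and a fold over 1.5. The smallest exact two-sided p that 3 livers against 3 allow is 0.10, so no exact test was used. Where nothing names separate experiments, the p-values measure the spread between these livers. On simulated counts of 15436 genes for miR-22-treated against untreated HCC, 98 of 100 genes changed 4-fold and 81 of 100 changed 2-fold were called, with 9 false calls. Every simulated gene was given the same spread between livers. The recovery was therefore not shown for genes that vary more, such as Sult3a1. Alternatives were DESeq2 1.42.0, other size factors, other filters, a replicate block, fits of 2 groups and leaving out each liver.

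The members and gene lists were chosen with earlier results of these data known. Genes were named as the most abundant of each subfamily, the 5 largest called rises and 5 largest called falls per comparison (with at least 10 counts in each library of the higher group), called members moving against their subfamily, and up to 3 genes of each pathway list with the smallest p. Other members were described after their values were seen. Some items of the gene lists are not reported here.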

Additional observations from a re-analysis of the deposited data

How the results depend on the processing

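Values were compared for the members named by the rule above, 1057 values over 90 results and all alternatives run. Of these, 980 kept their direction and their side of the threshold, 49 were no longer called, 22 became called and 6 changed sign. A member that a fit did not test gave no value there, so it was not counted as lost. Ugt1a5, Gstt3, Gsto1, Ugt2b5, Ugt2b36 and Ugt2b38 are outside these values. The sign changes were all in differences that were not called: Sult2a6 with miR-22 against HCC (−0.12 without HCC replicate 2, and up to 0.80 leaving out other livers), Mgst1 in miR-22-treated against healthy livers (0.0051 without treated replicate 2 and 0.0022 without treated replicate 4, with a lowest value of −0.14 over single livers left out) and Ugt1a9 in the same comparison (−0.14 with the replicate block, −0.13 without healthy replicate 1 and −0.09 without treated replicate 3, with a highest value of 0.13 over single livers left out).

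Requiring at least 10 counts in every library, which tests fewer genes, left 7 members higher in HCC and 8 higher in miR-22-treated than in healthy livers. In these comparisons that fit called 2575 and 1756 of 12836 genes higher. With miR-22 against HCC, 1 member, Gstm3, was called lower with DESeq2, with its size factors in edgeR, with no filter and with at least 10 counts in every library, and 2 (Gstm2 and Gstp1) with no fold limit; the cause was not tested. Leaving out single livers gave 45 to 48 calls in HCC (10 to 11 higher, 34 to 37 lower), 18 to 30 with miR-22 against HCC (16 to 28 higher, 0 to 2 lower) and 30 to 41 against healthy livers (10 to 12 higher, 19 to 30 lower). Over all tested genes the same fits gave 6062 to 6587, 1433 to 2660 and 3242 to 3809 calls.

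Same-numbered treated and untreated HCC livers did not deviate together (mean correlation −0.153 over 3 pairs), so the numbers do not pair livers. With the replicate block, calls were 46 (10 higher, 36 lower) in HCC, 22 (22 higher, 0 lower) with miR-22 and 33 (9 higher, 24 lower) against healthy livers. Over all 15717 tested genes the block gave 5863, 1745 and 3044 calls, against 6417, 2167 and 3772 without it. The block ended the calls of Sult1e1 in HCC, of Gstt3 and Ugt1a5 with miR-22, and of Gsta1, Gstp2, Gstz1, Sult1e1, Sult2a8, Sult3a1, Sult3a2, Sult5a1 and Ugt1a7c against healthy livers. It added calls of Gsta2 and Ugt2b5 in HCC, and of Gsta2, Gstk1 and Sult1c2 against healthy livers. With 3 livers a group, a difference that was not called is not shown to be absent, and genes at a few counts per library carry wide intervals.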
